A study of Homo sapiens with 12 samples.

Results

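Long intergenic non-coding RNAs that carry a systematic LINC symbol were followed by RNA sequencing in 769-P cells, an established human line from a clear cell renal carcinoma. A gene was included when its current symbol, looked up by Ensembl ID, was LINC followed by a number of 5 digits, and when its raw read counts summed over all 12 libraries came to 200 or more. The tables hold 60617 gene IDs, of which 2266 carry such a symbol and 973 of those had a count in at least 1 library. The minimum was met by 190 genes, called the LINC RNAs here. The members were chosen by their summed raw count, so their abundance is a description. A gene could also meet the minimum through counts in 1 group or 1 experiment, which touches every count of changed members that follows. Just inside the minimum were LINC02210 and LINC01376 with a summed count of 203 each, LINC00539 with 207 and LINC00240 with 212. Just outside were LINC01409, 1 count below the minimum, LINC01814 with 195, LINC02675 with 194 and LINC01160 with 192.

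The libraries form 4 groups of 3, all from 769-P cells kept in RPMI1640 medium with serum. The siDRAIC libraries are from cells given a small interfering RNA (siRNA) named for the long non-coding RNA DRAIC, and siDRAIC-NC are taken as their controls. The sihnRNPA2B1 libraries are from cells given an siRNA named for the RNA-binding protein hnRNPA2B1, and sihnRNPA2B1-NC are taken as their controls. The labels give no dose or time, and neither the siRNA sequences nor what NC stands for is stated there. All 4 groups share 1 tumour cell line. Nothing in the labels tells whether the libraries of a group came from different cultures, so a p-value here covers no more than the spread among these libraries, and that spread may be technical. HNRNPA2B1 RNA stood at 291 ± 16.7 CPM in sihnRNPA2B1 and 419.6 ± 21.0 CPM in sihnRNPA2B1-NC (SD, n = 3 each; CPM is the count scaled to the library total). DRAIC had 9 counts in all in siDRAIC and 5 in siDRAIC-NC, so a knockdown was not detectable at this depth, and that group is called the libraries labelled siDRAIC. In the other experiment DRAIC had 16 counts in sihnRNPA2B1 and 17 in sihnRNPA2B1-NC.

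LINC RNAs are transcribed by RNA polymerase II from loci between protein-coding genes, and many are capped, spliced and polyadenylated like messenger RNAs without coding for a known protein. As a class they are known for low levels and for expression restricted to few tissues. Some act on the gene next to them or hold protein complexes together, and for most no function is known. hnRNPA2B1 is a nuclear protein that binds RNA, takes part in splicing and RNA transport, and has been described to recognise RNA that carries m6A.

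The libraries held 30798303 to 42760528 counts each, and 21927 to 24055 genes had a count. Of 10 fixed markers of renal epithelium and clear cell renal carcinoma, 8 were above 1 CPM in every library, while CA9 and NDUFA4L2 were at or near 0. The 4 blood and immune, 3 endothelial and 3 hepatocyte markers were all under 1 CPM in every library. The summed level of 3 fibroblast markers was 10.5 to 18.1 CPM in the libraries labelled siDRAIC, against 2.55 to 6.53 CPM in siDRAIC-NC, and it was 3.56 to 4.12 CPM in sihnRNPA2B1, against 2.47 to 3.50 CPM in sihnRNPA2B1-NC. Of these, 1 was above 1 CPM in every library, COL1A1, and COL1A2 was at 0 in all but sihnRNPA2B1-NC. Their part in the results below was not tested. In bulk RNA, fewer cells of a kind and less RNA per cell cannot be told apart.

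The 190 LINC RNAs held 0.116% of all counts. Their share per library averaged 0.101% ± 0.00398 in the libraries labelled siDRAIC and 0.0917% ± 0.0115 in siDRAIC-NC, and 0.139% ± 0.00193 in sihnRNPA2B1 and 0.134% ± 0.00422 in sihnRNPA2B1-NC (SD, n = 3 each). Within each experiment the shares of siRNA and control libraries overlapped, with 0.0963% to 0.104% against 0.0805% to 0.103%, and 0.137% to 0.140% against 0.129% to 0.138%. Summed counts ran from 203 to 55094 with a median of 636. Counts of 1000 or more were reached by 75 LINC RNAs, and the 5 most abundant held 30.6% of all counts of the set. In both experiments 159 had at least 100 counts, while 17 fell under that in the DRAIC experiment and 14 in the hnRNPA2B1 experiment. In 10 of them a single group supplied most of the counts, at up to 60.8%.

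On GRCh38 the LINC RNAs lie on 23 chromosomes, 25 of them on chromosome 1. GENCODE 29 annotates 150 as lincRNA, 15 as processed transcripts, 9 as transcribed unprocessed pseudogenes, 8 as antisense, 6 as other types and 2 as protein coding, and it lists 43 under another name. The 2 protein-coding entries are LINC02693, there C17orf51, and LINC03040, there C6orf223. Exons of 60 LINC RNAs overlap another gene, on the opposite strand for 44 and on the same strand for 25. Whether reads were counted by strand is not stated, so the levels of those 60 are uncertain. The median distance from a LINC start to the nearest protein-coding start was 55934.5 bases, and 11 LINC RNAs started within 1000 bases of a coding gene on the opposite strand.

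Levels between genes were compared per length, as CPM per kb of merged exon. LINC00958, also known as BLACAT2 and described in bladder cancer, was the most abundant LINC RNA, at 26.3 CPM per kb in the libraries labelled siDRAIC, 31.3 in siDRAIC-NC, 58.9 in sihnRNPA2B1 and 56.5 in sihnRNPA2B1-NC. LINC00973, described in clear cell renal carcinoma as a regulator of the immune checkpoint molecule Siglec-15, was next at 45.9, 32.5, 44.7 and 35.2 CPM per kb in the same order of groups. LINC00973 was thus above LINC00958 in both groups of the DRAIC experiment, by little in siDRAIC-NC, and below it in both groups of the hnRNPA2B1 experiment. LINC01322 had 11.4, 12.9, 34.8 and 38.6 CPM per kb, and LINC00472, described as a tumour suppressor in breast cancer, had 17.4, 12.6, 17.7 and 16.0. The remaining 8 of the 12 highest were LINC02263, LINC01111, LINC00839, LINC00674, LINC00857, LINC01186, LINC02615 and LINC02274, at 3.20 to 25.0 CPM per kb over the groups. LINC00857 and LINC01186, next to each other in this order, were close, at 8.69 and 8.63 in sihnRNPA2B1. Within LINC01186 the groups were also close, at 4.49 ± 0.606 CPM in the libraries labelled siDRAIC and 4.66 ± 0.571 CPM in siDRAIC-NC, and at 5.40 ± 0.387 CPM in sihnRNPA2B1 and 5.28 ± 0.432 CPM in sihnRNPA2B1-NC.

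**Figure D1:**
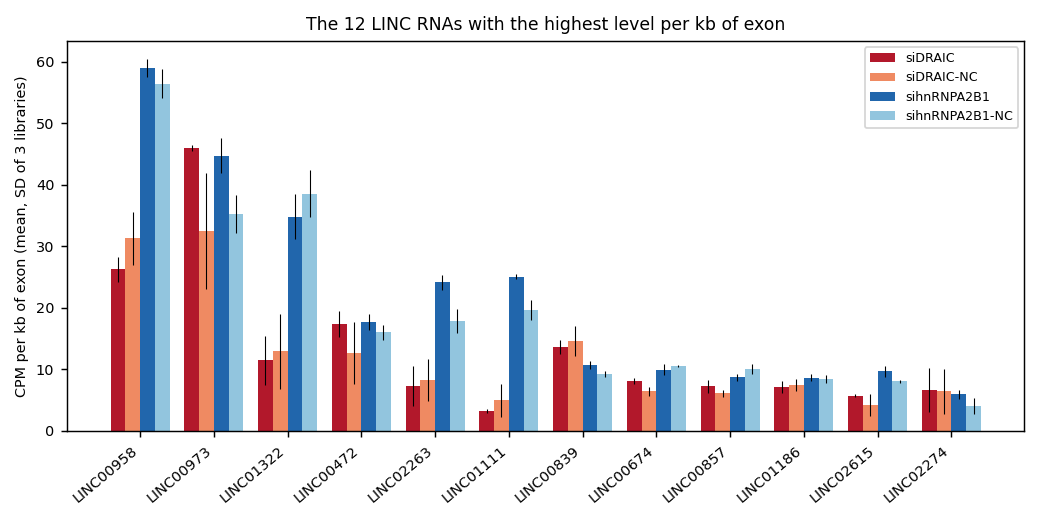
Mean CPM per kb of exon (bars from 0) with the SD of 3 libraries for the 12 LINC RNAs of highest mean level, in siDRAIC (dark red), siDRAIC-NC (orange), sihnRNPA2B1 (dark blue) and sihnRNPA2B1-NC (light blue). LINC00958 reaches 58.9 in sihnRNPA2B1 and 26.3 in siDRAIC, and LINC01111 reaches 25.0 in sihnRNPA2B1 and 3.20 in siDRAIC.

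After hnRNPA2B1 siRNA, 28 LINC RNAs stood higher than in the controls and 14 stood lower. The rise with the smallest p was that of LINC02593 at 1.61 on the log2 scale, and the fall with the smallest p was that of LINC02693 at -0.98. A LINC RNA is called changed where the adjusted p of edgeR's quasi-likelihood test is below 0.05, with Benjamini-Hochberg adjustment over all genes tested. Of 184 LINC RNAs tested, 28 rose and 14 fell, which is 22.8%, while 30.4% of all 15710 tested genes were called. By direction the background was 15.1% higher and 15.4% lower. The share of LINC RNAs that fell, 7.61%, was below that background and the share that rose, 15.2%, was near it. The median log2 fold change was 0.10 for the LINC RNAs and 0.01 for all tested genes. Of 548 tested lincRNAs without a LINC name, 88 were called, or 16.1% (10.2% higher and 5.84% lower). Their median log2 fold change was 0.10, so the tilt towards rises was not particular to the LINC RNAs. The libraries of the 2 groups did not overlap for 50 LINC RNAs that were higher and 22 that were lower, together 39.1%, beside 42.0% of all genes (23.7% higher and 18.3% lower). DESeq2 called 33 of 181, beside 29.1% of the genes it tested (13.7% higher and 15.4% lower), and edgeR with the replicate number as a block called 42, beside 28.1% (14.2% higher and 13.9% lower). A change of at least 2-fold was found in 9 of the LINC RNAs that rose and 3 that fell, beside 1.95% and 0.91% of all genes. The other 6 LINC RNAs had too few counts in this experiment to be tested.

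LINC02593 (ENSG00000223764, chr1:916865-921016, minus strand, GRCh38) had 12.7, 10.6 and 9.28 CPM in sihnRNPA2B1, against 4.29, 3.71 and 2.45 CPM in sihnRNPA2B1-NC. Every sihnRNPA2B1 library lay more than 2-fold above the highest control, with a rise of 1.61 on the log2 scale (SE 0.16, edgeR adjusted p = 6.97e-09). LINC00475 (ENSG00000225511, chr9:92141298-92160114, plus strand), described in glioma, had 15.9, 14.1 and 16.1 CPM in sihnRNPA2B1, against 8.02, 9.04 and 8.95 CPM in sihnRNPA2B1-NC. These groups were also apart, with a log2 fold change of 0.79 (SE 0.11, edgeR adjusted p = 1.19e-06). LINC02981 (ENSG00000214870, chr7:26398593-26494256, plus strand) had 3.93, 3.43 and 3.72 CPM in sihnRNPA2B1, against 1.69, 1.37 and 1.20 CPM in sihnRNPA2B1-NC. Its rise was 1.35 on the log2 scale (SE 0.21, edgeR adjusted p = 9.21e-06). LINC03040 (ENSG00000181577, chr6:44000580-44005958, plus strand) had 4.20, 4.22 and 4.16 CPM in sihnRNPA2B1, against 2.08, 2.21 and 1.28 CPM in sihnRNPA2B1-NC. The siRNA libraries of this gene were nearly equal and the rise was 1.14 (SE 0.20, edgeR adjusted p = 6.36e-05). Its exons overlap SCIRT on the opposite strand, so its level is uncertain.

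The other LINC RNAs among the 12 with the smallest p that rose did so by 0.32 to 1.79 on the log2 scale. LINC02532 and LINC02735 had the largest of these changes and the lowest levels. LINC02532 (ENSG00000235142, chr6:106717452-106787541) had 0.939, 1.37 and 1.38 CPM in sihnRNPA2B1, against 0.162, 0.305 and 0.556 CPM in sihnRNPA2B1-NC. LINC02735 (ENSG00000255433, chr11:56848478-56878078) had 33, 36 and 50 counts in sihnRNPA2B1, against 17, 8 and 8 counts in sihnRNPA2B1-NC. Both were far more abundant in the DRAIC experiment, where LINC02532 averaged 4.16 ± 1.32 CPM in the libraries labelled siDRAIC and 3.18 ± 1.27 CPM in siDRAIC-NC. At middle levels, LINC03061 rose by 0.54, LINC00938 by 0.53 and LINC02154, a LINC RNA described in clear cell renal carcinoma, by 0.67. Among the most abundant LINC RNAs the rises were small: LINC00973 had 43.03 ± 2.77 CPM in sihnRNPA2B1 and 33.9 ± 2.94 CPM in sihnRNPA2B1-NC (log2 fold change 0.32, SE 0.07, edgeR adjusted p = 0.00175). LINC01111 rose by 0.32 and LINC02263 by 0.40, each with separated libraries, and both overlap another LINC gene, LINC01109 on the same strand and LINC02262 on the opposite strand.

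LINC02693 (ENSG00000212719, chr17:21428381-21574517, minus strand) had the smallest p of any LINC RNA in this experiment. It had 31.5, 30.7 and 35.5 CPM in sihnRNPA2B1, against 64.5, 61.0 and 62.5 CPM in sihnRNPA2B1-NC. The siRNA group averaged 0.520 of the control level, with a log2 fold change of -0.98 (SE 0.07, edgeR adjusted p = 9.68e-12). Its exons overlap an unnamed gene on each strand, so its level is uncertain. LINC01547 (ENSG00000183250, chr21:44932814-44939913, minus strand) had 4.70, 3.56 and 3.92 CPM in sihnRNPA2B1, against 7.37, 7.16 and 7.28 CPM in sihnRNPA2B1-NC. Its controls were nearly equal, and it fell by 0.88 on the log2 scale (SE 0.14, edgeR adjusted p = 2.12e-05). LINC02901 (ENSG00000203711, chr6:158869939-158919105, plus strand) had 1.497, 2.59 and 2.18 CPM in sihnRNPA2B1, against 4.51, 4.85 and 4.34 CPM in sihnRNPA2B1-NC. That is a fall by 1.15 (SE 0.19, edgeR adjusted p = 3.03e-05).

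LINC00963, LINC00513, LINC01128, LINC00467 and LINC02188 fell by less than LINC02693, LINC01547 and LINC02901. LINC00963, described in prostate cancer, had 70.7, 73.2 and 73.4 CPM in sihnRNPA2B1, against 90.2, 90.3 and 83.9 CPM in sihnRNPA2B1-NC. It fell by 0.32 on the log2 scale (SE 0.06, edgeR adjusted p = 0.000168). LINC00513, known for variants linked to lupus and for a role in interferon signalling, had 6.18 ± 0.826 CPM in sihnRNPA2B1 and 8.88 ± 0.921 CPM in sihnRNPA2B1-NC (log2 fold change -0.56, SE 0.13, edgeR adjusted p = 0.00144). LINC01128 fell by 0.59, LINC00467 by 0.36 and LINC02188 by 0.46, each with separated libraries. LINC01128 overlaps LINC00115 and a further gene on the opposite strand.

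Of the 12 named falls, 4 were lost when single libraries were left out. LINC00680 fell by 0.57 (edgeR adjusted p = 0.0107) and lost its call without sihnRNPA2B1-NC replicate 1 (0.0814) or sihnRNPA2B1 replicate 1 (0.0585). It is annotated as a pseudogene transcript and overlaps a gene on each strand. LINC02861 fell by 1.25 (edgeR adjusted p = 0.0155) and lost its call without sihnRNPA2B1-NC replicate 3 (0.0605) or sihnRNPA2B1 replicate 1 (0.0975). LINC00622 fell by 0.52 (edgeR adjusted p = 0.0296), and its call was lost without replicate 1 (0.11) or 2 (0.0509) of sihnRNPA2B1-NC or replicate 1 (0.118) or 3 (0.0679) of sihnRNPA2B1. LINC00886 fell by 0.31 (edgeR adjusted p = 0.0331), and its call was lost without replicate 1 (0.1) or 3 (0.0749) of sihnRNPA2B1-NC or replicate 1 (0.0899) or 3 (0.148) of sihnRNPA2B1. In 1 fit of all 12 libraries, where the experiments share an estimate of the spread, 8 LINC RNAs were called, beside 1.66% of all genes. LINC02593, LINC00475, LINC02981, LINC03040, LINC02532, LINC02735 and LINC02693 were among them, and the other 17 of the 24 named here were not.

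**Figure D2:**
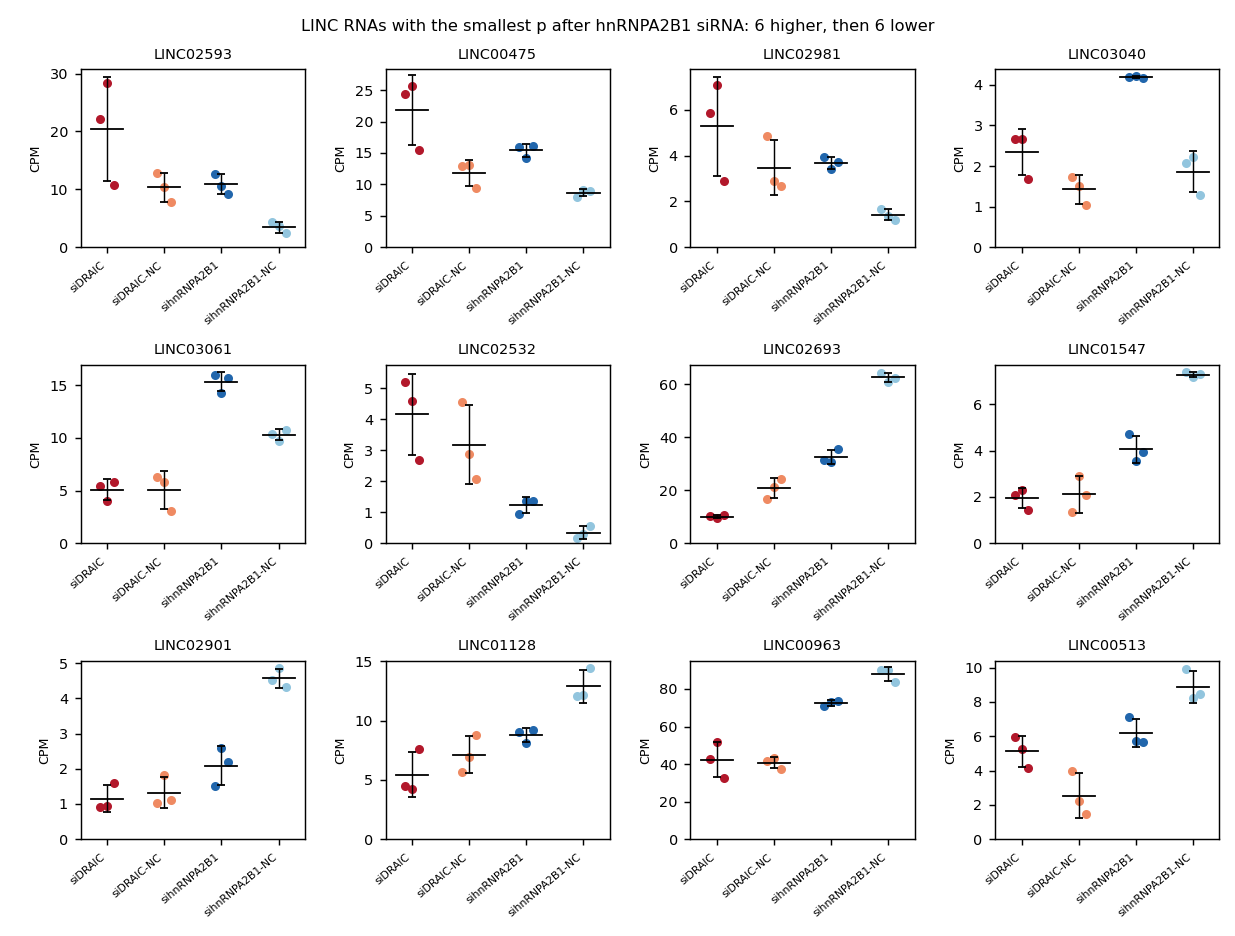
CPM in each library (points) with the mean and SD of each group (lines and bars, n = 3) for the 6 LINC RNAs of smallest p that rose and the 6 that fell after hnRNPA2B1 siRNA, with axes from 0. In every panel the sihnRNPA2B1 points lie clear of the sihnRNPA2B1-NC points, as for LINC02693 at 32.6 ± 2.59 against 62.7 ± 1.74 CPM.

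**Figure D3:**
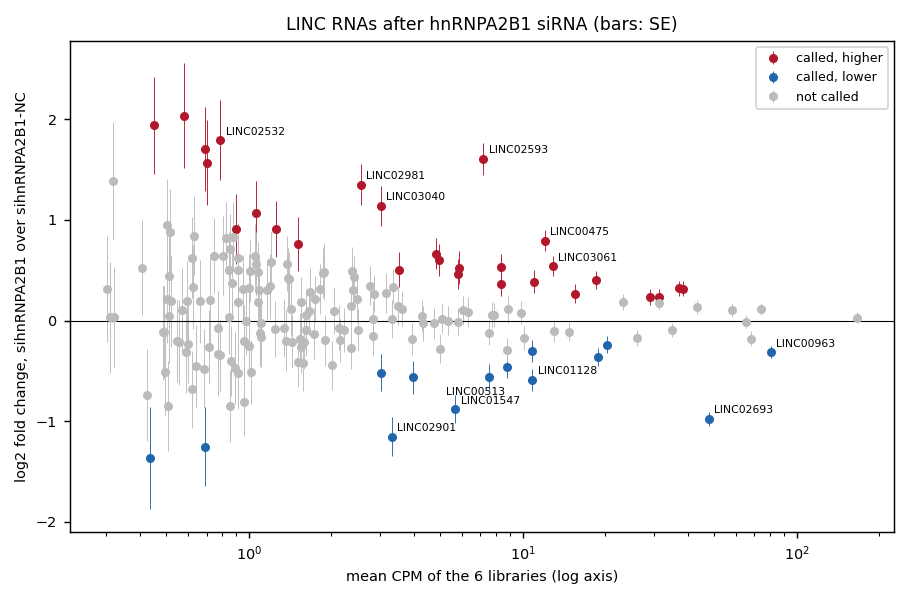
Log2 fold change of sihnRNPA2B1 over sihnRNPA2B1-NC with its SE (bars), against the mean CPM of the 6 libraries (log axis), for the 184 LINC RNAs tested. Red points are the 28 called higher, blue points the 14 called lower and grey points were not called, and the largest rises are at low CPM.

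A further 18 LINC RNAs were called after hnRNPA2B1 siRNA beyond those named. The biggest changes of all were among them, at low counts: LINC01234, a LINC RNA described in renal and gastric cancer, had 41, 40 and 24 counts in sihnRNPA2B1, against 0, 10 and 14 counts in sihnRNPA2B1-NC. Its rise was 2.04 on the log2 scale (SE 0.52, edgeR adjusted p = 0.00362). LINC01036 had 0.734, 0.737 and 0.675 CPM in sihnRNPA2B1, against 0.195, 0.102 and 0.2502 CPM in sihnRNPA2B1-NC (log2 fold change 1.94, SE 0.48, edgeR adjusted p = 0.0028). LINC00920 had the largest fall, of 1.37 (SE 0.51, edgeR adjusted p = 0.0394), but its libraries overlapped, at 0.147 to 0.406 CPM in sihnRNPA2B1 and 0.325 to 0.945 CPM in sihnRNPA2B1-NC. LINC01036 and LINC00920 were picked out after their values were seen.

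The letters of the RNAs that moved were read from the longest GENCODE 29 transcript of each gene, on the transcript strand. They are shown because hnRNP A/B proteins are known to bind UAGGG in RNA. Up to 41 bases around the first TAGGG of each transcript are printed, with that motif in capitals, first for 3 LINC RNAs that fell and then for 2 that rose.
LINC02693, transcript bases 1432 to 1472: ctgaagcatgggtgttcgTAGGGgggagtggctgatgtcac
LINC01547, transcript bases 1 to 33: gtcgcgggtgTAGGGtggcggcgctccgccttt
LINC02901, transcript bases 386 to 426: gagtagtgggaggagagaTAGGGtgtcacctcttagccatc
LINC02593, transcript bases 2683 to 2723: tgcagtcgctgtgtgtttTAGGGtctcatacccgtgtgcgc
LINC00475, transcript bases 841 to 881: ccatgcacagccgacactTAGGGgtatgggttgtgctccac
The motif was searched as TAGGG on the transcript strand alone. It occurs 8 times in the LINC02693 transcript of 7914 bases, 4 times in LINC00475 and not at all in the 907 bases of LINC02981, which rose. Of the 190 LINC RNAs 63.2% hold it, beside 70.7% of 15560 tested genes, whose transcripts are longer. Per length it was the more frequent in the LINC RNAs, at 0.573 per kb over their transcripts and 0.478 over those of tested genes. It is in 13 of the 14 LINC RNAs that fell and 19 of the 28 that rose. Pooled over the transcripts of a class, it was at 0.634 TAGGG per kb in those that fell, 0.612 in those that rose and 0.555 in the rest. The medians per transcript were further apart, at 0.623, 0.387 and 0.448 per kb in the same order. GGACT, a common form of the sequence that carries m6A, was in 78.4% of the LINC RNAs and 89.2% of tested genes, at a median transcript length of 2137.5 and 3270 bases. Per length it was close, at 1.01 and 0.971 per kb over all transcripts, with medians of 0.862 and 0.918. GGACT was in 10 of the 14 that fell and 26 of the 28 that rose. Pooled per kb it was at 0.971 in those that fell, 1.29 in those that rose and 0.951 in the rest. The medians were 0.842, 1.28 and 0.819 in the same order. These are descriptions with no test, and a match is not a binding site.

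Some LINC RNAs that changed share a start region with a coding gene. LINC01011, picked out after its values were seen, rose by 0.76 and starts 20 bases from NQO2 on the same strand. With starts that close, and how reads were counted not stated, the level of LINC01011 is uncertain. NQO2 was not called (log2 fold change -0.09, SE 0.06, edgeR adjusted p = 0.305). LINC01547 and SLX9, which codes for a ribosome biogenesis factor, start 97 bases apart on opposite strands. SLX9 had 28.01, 27.3 and 26.6 CPM in sihnRNPA2B1, against 39.9, 39.0 and 40.3 CPM in sihnRNPA2B1-NC. Its fall of 0.57 on the log2 scale (SE 0.07, edgeR adjusted p = 3.18e-07) went with the fall of LINC01547. In the libraries labelled siDRAIC neither was called in the fit without pairing. LINC01547 was at -0.16 and SLX9 at -0.73 (edgeR adjusted p = 0.923 and 0.266). SLX9 had 19.4, 19.6 and 24.6 CPM there, against 22.9, 40.3 and 39.4 CPM in siDRAIC-NC, in the order of the replicate numbers. Its value with the replicate block is not given here. The 300 bases from 250 before to 50 after the LINC01547 start (chr21:44939864-44940163, minus strand, GRCh38.p14, RefSeq) are printed as the start region that it shares with SLX9, with ACGTG, the core of the element that hypoxia-inducible factors bind, in capitals.
LINC01547 start region: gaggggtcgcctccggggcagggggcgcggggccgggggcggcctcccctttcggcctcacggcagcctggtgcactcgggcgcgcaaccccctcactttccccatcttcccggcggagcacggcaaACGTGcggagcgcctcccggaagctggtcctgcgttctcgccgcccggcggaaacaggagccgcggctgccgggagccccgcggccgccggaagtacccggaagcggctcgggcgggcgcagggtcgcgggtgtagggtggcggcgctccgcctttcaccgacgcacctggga
The LINC01547 window holds 76.3% G and C and 42 CG pairs, while the median over 34943 RefSeq promoters is 58.7% and 14. On either strand ACGTG is in 21.4% of all those promoters and in 28.9% of the 152 that matched 129 of the LINC RNAs, and TATAAA is in 11.6% and 15.1%. Of the matched promoters, 4 of 10 for LINC RNAs that fell and 5 of 20 for those that rose hold ACGTG.

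LINC02593 lies 2912 bases from the start of SAMD11, a gene for a SAM domain protein on the opposite strand, and both rose. SAMD11 averaged 20.5 ± 1.58 CPM in sihnRNPA2B1 and 10.4 ± 1.71 CPM in sihnRNPA2B1-NC (log2 fold change 0.95, SE 0.11, edgeR adjusted p = 9.16e-08). LINC01089 and SETD1B, which codes for a histone H3 lysine 4 methyltransferase, start 274 bases apart, and LINC01089 alone was called. The exons of LINC01089 overlap RHOF and 2 unnamed genes, so its level is uncertain. LINC01089 had 6.99, 6.20 and 4.88 CPM in sihnRNPA2B1, against 4.51, 3.51 and 3.64 CPM in sihnRNPA2B1-NC (log2 fold change 0.60, SE 0.16, edgeR adjusted p = 0.00455). SETD1B had 61.9 ± 1.91 CPM in sihnRNPA2B1 and 62.3 ± 1.71 CPM in sihnRNPA2B1-NC (log2 fold change -0.04, SE 0.06, edgeR adjusted p = 0.638). LINC00973 rose beside DCBLD2, a transmembrane receptor gene whose start is 79369 bases away. DCBLD2 had 974 ± 45.7 CPM in sihnRNPA2B1 and 683 ± 22.9 CPM in sihnRNPA2B1-NC (log2 fold change 0.48, SE 0.05, edgeR adjusted p = 8.99e-09). SAMD11 is also the coding gene nearest to LINC01128, with starts 98790 bases apart on the same strand, and LINC01128 fell by 0.59. The 42 LINC RNAs called had 33 distinct nearest coding neighbours that were tested, and 13 of those were called. Of all protein-coding genes tested 35.0% were called, and of all genes 30.4%. Counted by LINC RNA, with SAMD11 in both tallies, 11 had a called neighbour that moved the same way and 3 one that moved the other way. No background was computed for these directions, so they are a description.

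In the libraries labelled siDRAIC 1 LINC RNA passed the test in the fit without pairing, LINC02693, and it was lower. The fit with the replicate number as a block, given below, called 11 higher and 4 lower, or 8.29%, beside 8.78% of all genes. LINC02693 had 10.2, 9.42 and 10.5 CPM in the libraries labelled siDRAIC, against 16.7, 21.4 and 24.3 CPM in siDRAIC-NC. The groups did not overlap, and the log2 fold change of -1.08 (SE 0.22) had an edgeR adjusted p of 0.0462. Of 181 LINC RNAs tested it was the 1 called, with 0 called higher, beside 0.713% of all 15986 genes (0.582% higher and 0.131% lower). At an unadjusted p below 0.05 there were 18 of 181, near the 10.7% of all genes, and DESeq2 called 5, beside 2.16% of the genes it tested (1.61% higher and 0.551% lower). The median log2 fold change was 0.07 for the LINC RNAs, 0.06 for lincRNAs without a LINC name and -0.00 for all tested genes. Groups did not overlap for 21 LINC RNAs that were higher and 13 that were lower, together 18.8%, beside 15.6% of all genes (9.75% higher and 5.86% lower). The call of LINC02693 was lost without siDRAIC-NC replicate 2 (edgeR adjusted p = 0.218) or 3 (0.259) and without siDRAIC replicate 1 (0.126), 2 (0.211) or 3 (0.138), and held without siDRAIC-NC replicate 1 (0.00415). It was also lost with RLE size factors (0.0501) and a filter at 1 CPM (0.0567).

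Same-numbered libraries of the DRAIC experiment deviated together, so the replicate number was also used as a block. LINC02274 shows this: it had 12.5, 6.45 and 4.36 CPM in the libraries labelled siDRAIC, against 12.2, 6.64 and 3.74 CPM in siDRAIC-NC, in the order of the replicate numbers. LINC00342, picked out after its values were seen, had 23.9, 6.22 and 3.505 CPM in the libraries labelled siDRAIC, against 23.0, 5.61 and 3.69 CPM in siDRAIC-NC. In both, the spread within a group was wide and the matched libraries were close. With the block, 11 LINC RNAs were called higher and 4 lower, or 8.29% of those tested, beside 8.78% of all genes (5.2% higher and 3.58% lower). LINC02693 remained called, at -1.06 (SE 0.19, edgeR adjusted p = 2.48e-06 with the block).

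LINC02154, LINC02280 and LINC02742 had the widest differences among the 6 LINC RNAs of smallest p. LINC02154 (ENSG00000235385, chrX:13266048-13303452, minus strand) had 1.19, 3.06 and 5.03 CPM in the libraries labelled siDRAIC, against 0.341, 0.701 and 0.979 CPM in siDRAIC-NC. All 3 of the first lay above the controls, with a log2 fold change of 2.15 (SE 0.54, edgeR adjusted p = 0.12), and 2.10 with the block (SE 0.34, edgeR adjusted p = 5.31e-08). LINC02280 (ENSG00000260792, chr14:104661120-104665558, minus strand) had 1.77, 3.81 and 2.86 CPM in the libraries labelled siDRAIC, against 1.08, 0.952 and 0.258 CPM in siDRAIC-NC. Its groups were apart, with a log2 fold change of 1.88 (SE 0.47, edgeR adjusted p = 0.109) and 1.92 with the block (edgeR adjusted p = 1.06e-06). LINC02742 (ENSG00000249867, chr11:28702615-29063821, plus strand) had 3, 5 and 3 counts in the libraries labelled siDRAIC, against 17, 30 and 11 counts in siDRAIC-NC. At those counts it differed by -2.41 on the log2 scale (SE 0.62, edgeR adjusted p = 0.115), and -2.38 with the block (edgeR adjusted p = 0.00947).

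LINC01963 and LINC01508 complete the 6 by p. LINC01963 had 11.4, 8.16 and 12.5 CPM in the libraries labelled siDRAIC, against 6.39, 4.03 and 5.82 CPM in siDRAIC-NC. LINC01508 had 3.80, 4.91 and 3.42 CPM in the libraries labelled siDRAIC, against 2.38, 1.85 and 1.73 CPM in siDRAIC-NC. Both had separated libraries and log2 fold changes of 0.96 and 1.01, with edgeR adjusted p of 0.125 and 0.15, and of 0.000282 and 0.00492 with the block. The others called with the block were LINC02593 at 0.89, LINC00475 at 0.85, LINC00513 at 1.08, LINC03072 at 1.00, LINC01781 at 1.22, LINC00472 at 0.50 and LINC00973 at 0.51, all higher, and LINC00460 at -0.78 and LINC02535 at -0.72. LINC00460, described in renal and other cancers, had 3.80, 4.72 and 3.42 CPM in the libraries labelled siDRAIC, against 5.71, 6.86 and 7.58 CPM in siDRAIC-NC. Its edgeR adjusted p was 0.257, and 0.0143 with the block.

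The 2 siRNA effects were then set against each other. Among 175 LINC RNAs tested in both experiments, 69 were higher in both, 36 lower in both and 70 of opposite sign. Over these 175 the 2 log2 fold changes had a Pearson r of 0.35, and over all 14962 genes tested in both an r of 0.378, as a description across genes. With the block in the DRAIC experiment, 7 of the 175 LINC RNAs were called in both, beside 5.07% of the 14962 genes (4.52% in the same direction and 0.541% in opposite directions). They were LINC02693 lower in both, LINC02593, LINC00475, LINC02154, LINC01963 and LINC00973 higher in both, and LINC00513 higher in the libraries labelled siDRAIC and lower after hnRNPA2B1 siRNA. No LINC RNA passed edgeR's test of the difference between the effects, beside 0.211% of all 17091 genes (0.105% in each direction). An unadjusted p below 0.05 was found for 18 of the 190 LINC RNAs, near the 9.13% of all genes. With the block 3 passed, beside 1.51% of genes (0.673% higher and 0.837% lower), and DESeq2 passed 2, beside 1.12% (0.627% higher and 0.496% lower). Without siDRAIC-NC replicate 1, edgeR passed 2, beside 1.98% of genes.

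LINC00513 had the smallest p for that difference. It had 5.96, 5.26 and 4.15 CPM in the libraries labelled siDRAIC, against 3.97, 2.20 and 1.44 CPM in siDRAIC-NC. In the other experiment it had 7.13, 5.72 and 5.69 CPM in sihnRNPA2B1, against 9.94, 8.23 and 8.48 CPM in sihnRNPA2B1-NC. All 3 libraries were thus higher than their controls in one experiment and lower in the other, and the difference of the effects was 1.54 (SE 0.36, edgeR adjusted p = 0.126), with 0.00759 under the block and 0.00693 by DESeq2. For LINC02280 the difference was 2.35 (SE 0.58, edgeR adjusted p = 0.15), with 0.0381 under the block and 0.0189 by DESeq2. LINC02154, the other called with the block, rose in both experiments, by 0.67 after hnRNPA2B1 siRNA. For LINC02693 the 2 falls differed by -0.14 (SE 0.21, edgeR adjusted p = 0.903).

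**Figure D4:**
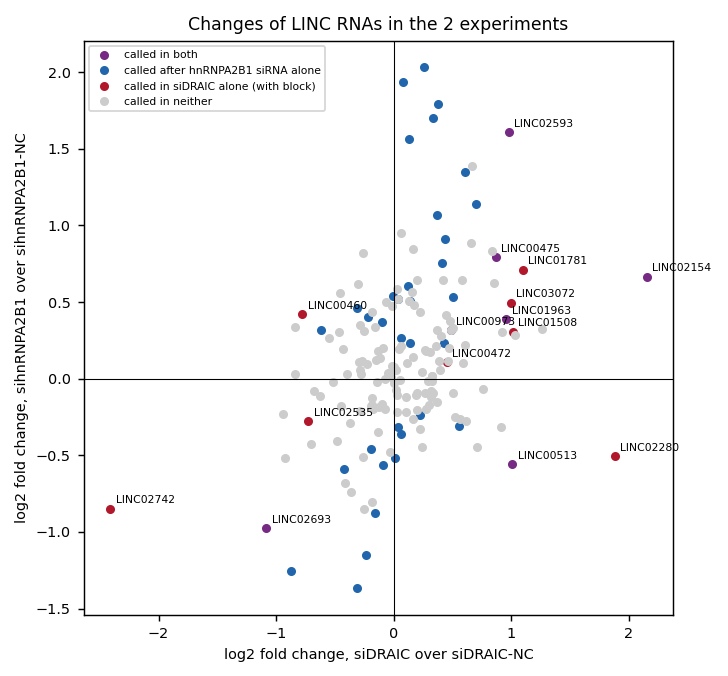
Log2 fold change of sihnRNPA2B1 over sihnRNPA2B1-NC (vertical axis) against that of siDRAIC over siDRAIC-NC (horizontal axis) for the 175 LINC RNAs tested in both. Colours mark calls by edgeR, with the replicate block for the DRAIC experiment, and the 15 labelled points are those called there, with LINC02693 at lower left and LINC00513 at lower right.

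Between the control groups 95 LINC RNAs differed. The comparison of sihnRNPA2B1-NC with siDRAIC-NC sets 2 experiments against each other, so the experiment and the control siRNA cannot be told apart, and it shares its controls with the comparisons above. Of 190 LINC RNAs tested, 60 were higher in sihnRNPA2B1-NC and 35 lower, or 50%, beside 50.1% of all 15868 genes (24.8% higher and 25.3% lower). The median log2 fold change was 0.26 for the LINC RNAs, 0.10 for lincRNAs without a LINC name and -0.01 for all tested genes. Groups did not overlap for 119 LINC RNAs, or 62.6%, beside 59.9% of genes (29.9% higher and 30.0% lower). DESeq2 called 89, beside 39.2% of the genes it tested (19.1% higher and 20.1% lower), and the replicate number as a block left 92, beside 48.3% (24.4% higher and 23.8% lower). Changes of at least 2-fold were found in 41 that were higher and 28 that were lower, beside 11.7% and 13.1% of all genes.

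LINC00662, described in liver and other cancers, had 69.7, 65.6 and 74.4 CPM in sihnRNPA2B1-NC, against 17.0, 8.87 and 9.10 CPM in siDRAIC-NC. The groups were far apart (log2 fold change 2.59, SE 0.22, edgeR adjusted p = 2.77e-05), and the gene overlaps LINC02987 on the opposite strand. LINC01239 (ENSG00000234840, chr9:22646200-22824213, plus strand) had 90, 99 and 158 counts in sihnRNPA2B1-NC, against 5, 3 and 8 counts in siDRAIC-NC, a 23.2-fold difference in mean CPM (edgeR adjusted p = 3.91e-05). LINC01498 (ENSG00000247213, chr12:108434130-108492585, minus strand) went the other way, with 3, 2 and 5 counts in sihnRNPA2B1-NC, against 64, 94 and 126 counts in siDRAIC-NC (log2 fold change -4.69, SE 0.45, edgeR adjusted p = 5.74e-05). In the siRNA libraries LINC01239 averaged 3.72 ± 0.380 CPM in sihnRNPA2B1 and 0.136 ± 0.170 CPM in the libraries labelled siDRAIC.

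Also higher in sihnRNPA2B1-NC were LINC00963 at 2.16-fold, LINC02693 at 3.02-fold, LINC02035 at 3.71-fold and LINC02334 at 7.60-fold the siDRAIC-NC mean. Lower were LINC02188 at 0.379, LINC01182 at 0.219, LINC00460 at 0.174, LINC01588 at 0.312 and LINC02735 at 0.107 of it. For LINC02735 the libraries held 0.552, 0.203 and 0.222 CPM in sihnRNPA2B1-NC, against 3.95, 3.01 and 2.16 CPM in siDRAIC-NC. LINC02532 had 0.341 ± 0.199 CPM in sihnRNPA2B1-NC and 3.18 ± 1.27 CPM in siDRAIC-NC.

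**Figure D5:**
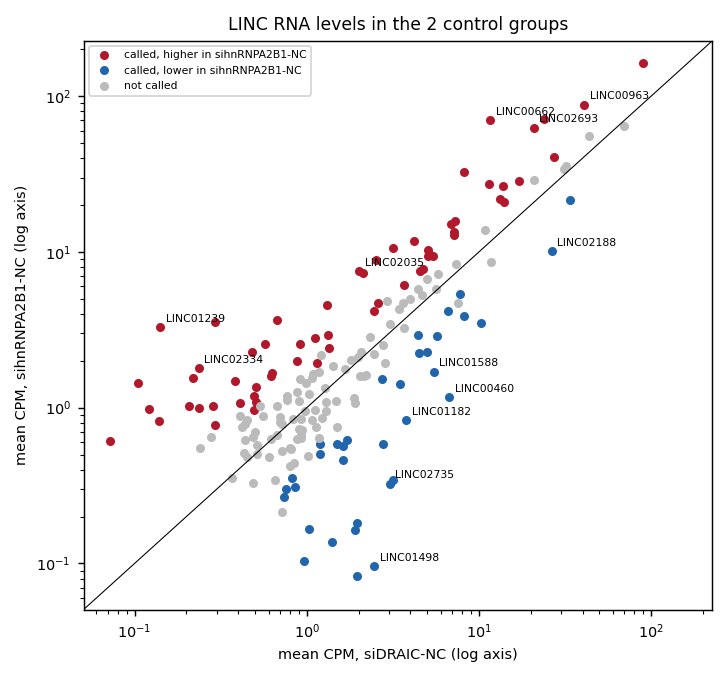
Mean CPM of each of the 190 LINC RNAs in sihnRNPA2B1-NC (vertical, log axis) against siDRAIC-NC (horizontal, log axis), with the line of equal levels. Red points are the 60 called higher and blue points the 35 called lower in sihnRNPA2B1-NC, and labels mark the 12 of smallest p such as LINC00662 and LINC01498.

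A list of 8 LINC RNAs described in renal carcinoma had 6 above the count minimum, and 3 of them rose after hnRNPA2B1 siRNA (LINC00973, LINC02154 and LINC01234) while 0 fell, with a median log2 fold change of 0.37, beside 15.1% of all genes called higher and 15.4% lower. The others on the list were at 0.42 for LINC00460, -0.22 for LINC01094 and -0.47 for LINC00944, with edgeR adjusted p of 0.315, 0.579 and 0.346. In the libraries labelled siDRAIC 0 of 5 tested were called by edgeR, with a median of 0.26, beside 0.713% of all genes. With the block LINC00973, LINC02154 and LINC00460 were called, beside 8.78%. Between the controls LINC00944 and LINC02154 were higher in sihnRNPA2B1-NC and LINC00460 was lower, beside 50.1% of all genes called. The list was chosen with earlier results of these data known. For that reason, and with 6 genes, these counts are a description and give no support to a contrast with all genes.

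Of 29 LINC RNAs listed for a described role in other cancers or cells, 25 were in the tables and 13 reached the minimum. After hnRNPA2B1 siRNA 1 of the 13 rose, LINC00667 by 0.24 (SE 0.07, edgeR adjusted p = 0.0138), and 3 fell, LINC00467, LINC00963 and LINC00680, with a median of 0.03. That is 4 of 13 called, near the 30.4% of all genes. This list too was chosen with earlier results of these data known. LINC00511, picked out after its values were seen and described as an oncogenic RNA in several cancers, had 65.5 ± 0.264 CPM in sihnRNPA2B1 and 64.6 ± 4.07 CPM in sihnRNPA2B1-NC (log2 fold change -0.01, SE 0.06, edgeR adjusted p = 0.897). LINC00958 had 169, 174 and 165 CPM in sihnRNPA2B1, against 160, 157 and 170 CPM in sihnRNPA2B1-NC, a difference of 0.03 on the log2 scale (SE 0.05, edgeR adjusted p = 0.723). Of the 13, 0 in the libraries labelled siDRAIC were called by edgeR, with a median of 0.07, beside 0.713% of all genes, and with the block LINC00472 was, at 0.50, beside 8.78%. Between the controls 7 were higher in sihnRNPA2B1-NC, among them LINC00662, LINC00641 and LINC00958, and LINC00839 was lower, beside 24.8% of all genes called higher and 25.3% lower.

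Over the 12 libraries, log2 CPM of some LINC RNAs ran nearly in parallel. LINC00958 had 19 others with a Pearson r above 0.9, with LINC03067 the closest at 0.986, and LINC01111 had 25, with LINC00662 the closest at 0.989. LINC02693 had 3, with LINC00623 at 0.953, and LINC02593 had 2, with LINC02981 at 0.977. These values are a description over 12 libraries that share 4 groups and 2 experiments.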

How the data were processed

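The authors deposited raw read counts, whole numbers per Ensembl gene and library, in 1 table per siRNA experiment. Per the labels' protocols, RNAiso Plus gave total RNA and a TruSeq kit the libraries. Per the submitters' processing notes, the build was hg38 and the tools were fastp 0.23.2, STAR 2.7.10a, StringTie and DESeq2; how reads were counted, against which annotation and with which strand setting, is not stated in the sources used. Every row named a gene and every sample column was used. Symbols were found for 60261 IDs and coordinates in GENCODE 29 for 58542. The RNAs and lists described were chosen with earlier results of these data known.

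The 2 experiments had separate fits in edgeR 4.0.16 (R 4.3.3): filterByExpr at its minimum count of 10, TMM factors, the robust quasi-likelihood test, two-sided, adjusted by Benjamini-Hochberg over all genes tested. The difference of effects used 1 fit of all 12 libraries. Fits were tested on simulated data of independent libraries without a replicate effect. That test does not cover the deviations shared by same-numbered libraries of the DRAIC experiment. CPM is scaled to the library total. The alternatives were RLE factors, DESeq2 1.42.0, no low-count filter, 1 CPM in 3 libraries, all 12 libraries in 1 fit, the replicate number as a block, each library left out in turn, and a summed count of 500 or 50. Named are up to 12 LINC RNAs per direction with the smallest p called per siRNA, or the 6 smallest where fewer were called, up to 6 per side between controls, the 12 highest levels per kb, called list members, and the nearest coding neighbours. The groups share replicate numbers: the same-numbered pairs of the DRAIC experiment correlated at 0.489, 0.227 and 0.277 in their deviations from the group means and are taken as paired, while those of the hnRNPA2B1 experiment were at -0.0117, -0.0242 and -0.0456 and those between the controls at -0.0174, 0.118 and -0.0993. Totals of 30798303 to 42760528 counts and 3 libraries per group set the precision.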

Additional observations from a re-analysis of the deposited data

How the results depend on the processing

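The number of LINC RNAs called in the libraries labelled siDRAIC, 1 as reported, beside 0.713% of all genes, moved with the setting. The share of all genes called moved too. There were 0 with RLE factors and 0 with the 1 CPM filter, beside 0.507% and 0.47% of all genes. DESeq2 called 5, beside 2.16%, and edgeR without a low-count filter called 7, beside 1.69%. All 12 libraries in 1 fit gave 8, beside 3.89%, and the replicate block gave 15, beside 8.78%. With a library left out there were 0 to 8, beside 0.0542% to 6.26%. The 8 and the 6.26% were without siDRAIC-NC replicate 1. After hnRNPA2B1 siRNA the 42 called, beside 30.4% of all genes, became 8 with all 12 libraries in 1 fit, beside 1.66%. With a library left out they were 28 to 39, beside 20.5% to 33.9%. The block gave 42, beside 28.1%, of which 41 were the same genes. The replicate numbers do not pair those samples, nor the controls. There the block gave 92 in place of 95, beside 48.3% and 50.1% of all genes. For the difference of effects the count of 0, beside 0.211% of all genes, became 2 with DESeq2, beside 1.12%. It was 4 without a low-count filter, beside 0.779%, and 3 with the replicate block, beside 1.51%. With a library left out it was 0 to 2, beside 0.0507% to 1.98%. Between the controls the count was 73 to 108 with a library left out, beside 35.5% to 63.3% of all genes. A summed count of 500 or more would leave 114 genes and one of 50 or more 329. Of 285 values of the 24 named calls after hnRNPA2B1 siRNA, 31 lost the call and 0 changed sign; all 144 values of the 12 named between the controls kept theirs. Why counts moved was not tested. LINC RNAs with few counts are the least precise, and 9 in the DRAIC and 6 in the hnRNPA2B1 experiment could not be tested.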
